A study of Homo sapiens with 18 samples.

Results

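The comparison is of post-hypoxic against non-hypoxic SCC154 cells, an established HPV-positive squamous carcinoma line of the head and neck (titled SCC154-hfm). It rests on 9 of the 18 libraries of the series, chosen by their titles: post-hypoxic replicates 2 to 5 (n = 4) and non-hypoxic replicates 1 to 5 (n = 5). All 9 libraries came from cells that carried a hypoxia fate-mapping reporter, had been part of spheroids grown in ultra-low attachment plates, had been freed with trypsin and had been sorted by fluorescence. The post-hypoxic cells were sorted as positive for GFP and the non-hypoxic cells as positive for DsRed, and both were then kept in culture and passaged. The oxygen level of that culture is not stated in the labels. The other 9 libraries were of FADU-hfm, an HPV-negative line treated in the same way, with 5 post-hypoxic and 4 non-hypoxic libraries. They share the estimate of spread, and their values are given beside some of the SCC154 results. Nothing in the labels says whether the replicates were separate sorts or cultures, and the p-values therefore speak only to the spread among the libraries, which may be technical. The clonality of the reporter line and the number of passages between sort and harvest are not stated either.

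As background, cells short of oxygen stabilise hypoxia-inducible factors (HIF), which switch on genes of glycolysis, vessel growth and acid balance and which are degraded again once oxygen returns. A fate-mapping reporter of this kind uses a recombinase that is made and kept only while HIF is active, and it removes the red gene and turns on the green one for good. A green cell is therefore a cell, or the descendant of a cell, that met low oxygen at some time, and not a cell that was short of oxygen when its RNA was taken.

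Messenger RNA was counted by 3′ tags (QuantSeq), in which each read marks the end of a transcript, and levels are given in counts-per-million (CPM), scaled with TMM factors. Library totals ran from 1654719 to 2397549 counts in the post-hypoxic and from 1731098 to 2378109 counts in the non-hypoxic libraries, so that 1 CPM stood for 1.68 to 2.44 counts. All 12 squamous epithelial markers were measured, with a summed level of 2840 to 3460 in post-hypoxic and 3050 to 3300 in non-hypoxic libraries (CPM of the library total, without TMM factors). None of the markers of fibroblasts, endothelium or immune cells had enough counts to be tested, and in the same unit the sums for fibroblasts were 1.87 to 3.75 in post-hypoxic and 3.90 to 5.81 in non-hypoxic libraries, and those for endothelium 2.80 to 5.44 in post-hypoxic and 2.17 to 5.78 in non-hypoxic libraries. The immune sums were 2.80 to 3.63 in post-hypoxic and 0 to 2.02 in non-hypoxic libraries, without overlap, and rested mainly on CD68, with 16 counts over the post-hypoxic and 3 over the non-hypoxic libraries; their part in the results was not tested. COL1A2, COL3A1, LUM, PDGFRA, PECAM1, VWF, KDR, CD3E, MS4A1 and NKG7 had no count. CDKN2A, whose protein p16 is typically abundant in HPV-positive tumours, stood at 219.9 ± 19.1 CPM in post-hypoxic and 193 ± 6.03 CPM in non-hypoxic SCC154 libraries, against means of 71.5 CPM in post-hypoxic and 67.8 CPM in non-hypoxic FADU libraries.

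Some libraries stood apart from the rest of their group. On the first principal component of the 9 libraries, which held 38.06% of the variance, post-hypoxic replicates 2 and 4 scored 20.9 and 34.7 and non-hypoxic replicate 4 scored 8.09, while the other 6 libraries scored from -16.8 to -0.68. These 3 libraries also had the largest share of counts from ribosomal protein genes (4.89%, 5.45% and 5.00%, against 4.17% to 4.36% in the other 6) and the lowest shares of mitochondrial rRNA and of MALAT1 with NEAT1, and the part of this in the results was not tested. Post-hypoxic replicate 3 lay alone on the second component (-26.0) and non-hypoxic replicate 1 on the third (23.8). The second component held 17.79% of the variance. On it all post-hypoxic libraries (-26.0 to -2.81) scored below all non-hypoxic ones (-1.61 to 16.5). The summed level of 27 genes of the unfolded protein and integrated stress response was 5668 to 6004 CPM in the post-hypoxic libraries and 3594 to 6624 CPM in the non-hypoxic ones, the lowest in non-hypoxic replicate 1. Counts are therefore also given without single libraries and with post-hypoxic replicate 3 and non-hypoxic replicate 1 both left out.

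Post-hypoxic SCC154 cells differed from their non-hypoxic counterparts in 93 genes, which were spread over many functions. The rises included IRF9, an interferon signalling factor, REC8, a cohesin subunit of meiosis, and MMP12, an elastin-degrading protease. The falls included the hair keratin KRT81, the amino acid transporter SLC7A2 and the actin-binding gene CALD1. Of 12291 genes tested, these 93 (0.757%) passed an adjusted p of 0.05 (quasi-likelihood test of edgeR, adjusted over all genes after Benjamini and Hochberg), and 15.7% had an unadjusted p under 0.05. Post-hypoxic cells had the higher level in 41 (0.334%) and the lower level in 52 (0.423%). With upper-quartile scaling, which shifted the median of all genes by 0.0183 on the log2 scale, 70 passed, 40 higher and 30 lower. In 32 of the 93 genes of the main fit the difference was at least 2-fold, with 14 rises and 18 falls. The libraries of both groups did not overlap in 90 of the 93, where 5.55% of all genes tested showed no overlap. The exceptions were VTI1B, CD22 and GRB10. Of the 93, 33 belonged to at least 1 of 43 gene lists used below and 60 to none. The lists were chosen with earlier results of these data known. The share of a list called is therefore a description and cannot be read as enrichment. In bulk RNA a change in the share of cells that express a gene and a change in RNA per cell cannot be told apart.

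The number of genes past the threshold depended on single libraries. It was 23, 163, 20 and 190 without post-hypoxic replicate 2, 3, 4 or 5 in turn, and 57, 20, 21, 51 and 24 without non-hypoxic replicate 1, 2, 3, 4 or 5. A group of 13 genes passed in every alternative that gave a value. They included IRF9, REC8, NANOS1, FHAD1, MYLK, ARHGEF3 and ERMP1, which rose, and KRT81, LRATD1, CALD1, SLC7A2 and NFIB, which fell. The other 80 lost the call in at least 1 alternative, and none of the 93 changed direction in any. With the replicate number entered as a block for each line, 1052 genes passed, all 93 among them. That fit takes same-numbered libraries as pairs, which no label states.

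**Figure D1:**
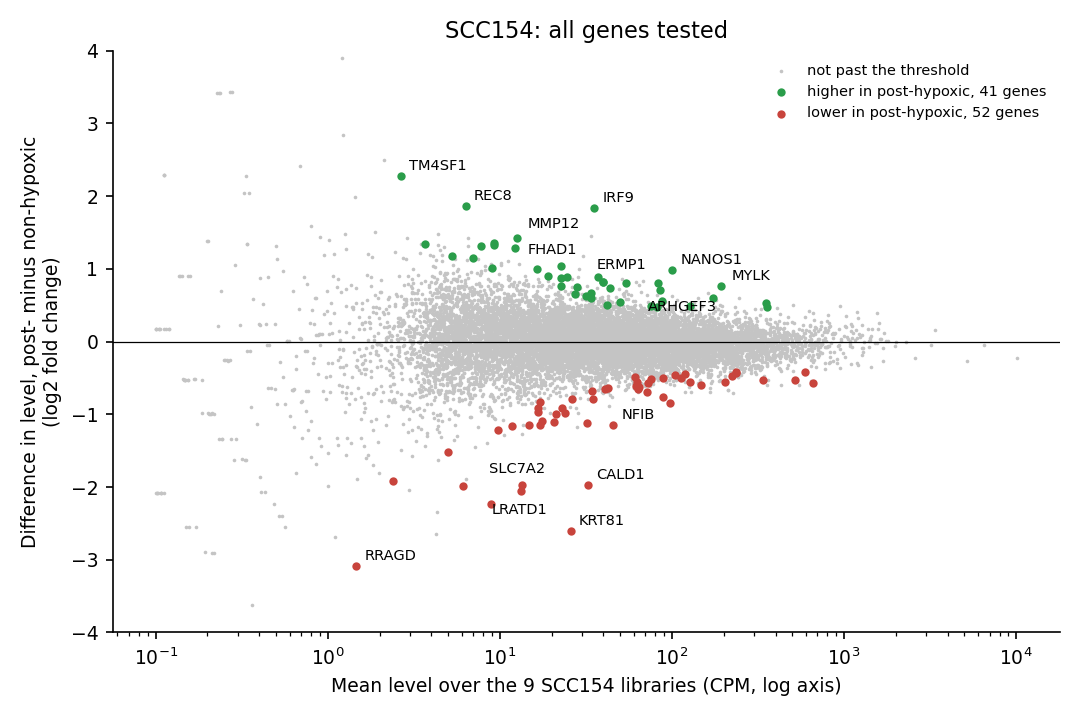
Difference between post- and non-hypoxic SCC154 libraries (log2 fold change) for each tested gene against its mean level over the 9 libraries (CPM, log axis; genes under 0.1 CPM that did not pass are not drawn). The 41 genes past the threshold and higher in post-hypoxic cells are green and the 52 lower ones red; the named genes are those said above to have passed in every alternative, and MMP12, TM4SF1 and RRAGD.

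IRF9 and REC8 rose most among the genes that passed in every alternative, and they are close neighbours on the long arm of chromosome 14. IRF9 (chr14:24161053-24166565, plus strand) encodes the DNA-binding subunit of ISGF3, the transcription factor that forms when cells sense type I interferon. Its level was 46.7, 71.00, 56.2 and 60.4 CPM in post-hypoxic replicates 2 to 5, against 10.9, 17.4, 23.6, 13.01 and 17.4 CPM in non-hypoxic replicates 1 to 5. Every post-hypoxic library lay above every non-hypoxic one, and the rise was 3.56-fold, a log2 fold change of 1.83 (SE 0.22, adjusted p = 9.75e-05). REC8 (chr14:24171853-24180257, plus strand) encodes the subunit that replaces its mitotic relative in meiotic cohesin. It stood at 10.2, 8.95, 13.9 and 9.53 CPM in post-hypoxic replicates 2 to 5 and at 2.96, 2.42, 1.150, 4.34 and 3.32 CPM in non-hypoxic replicates 1 to 5, again without overlap between the groups, a 3.64-fold rise with a log2 fold change of 1.86 (SE 0.28, adjusted p = 0.00169). At the 3′ end IRF9 lies under the gene AL136295.5 on the same strand and REC8 under IPO4 on the other strand. IPO4 averaged 1.96 ± 0.546 CPM in post-hypoxic and 1.56 ± 0.628 CPM in non-hypoxic libraries, and reads of these partners cannot be told apart. In FADU the same differences were 0.35 for IRF9 and 0.44 for REC8 on the log2 scale, and neither passed there or differed from SCC154 by the test of the difference between the lines.

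Because both genes rose together, the promoters are shown as RefSeq gives them in GRCh38.p14, 5′ to 3′ on the plus strand. Each window runs from 250 bases before to 50 bases after the RefSeq start. For both genes the GENCODE start given above lies near the beginning of the window, so little sequence before that start was searched. Both strands were searched for 3 motifs: the core of the HIF response element (ACGTG), an interferon-stimulated response element (GAAA, any 2 bases and GAAA again) and a gamma-activated site (TTCNNNGAA). Capitals mark the matches.
IRF9, chr14:24161015-24161314: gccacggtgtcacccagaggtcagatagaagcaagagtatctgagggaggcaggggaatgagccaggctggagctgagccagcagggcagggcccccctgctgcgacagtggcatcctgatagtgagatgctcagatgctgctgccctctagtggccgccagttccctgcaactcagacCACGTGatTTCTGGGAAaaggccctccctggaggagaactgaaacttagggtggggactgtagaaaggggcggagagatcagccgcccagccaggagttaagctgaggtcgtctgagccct
REC8, chr14:24171830-24172129: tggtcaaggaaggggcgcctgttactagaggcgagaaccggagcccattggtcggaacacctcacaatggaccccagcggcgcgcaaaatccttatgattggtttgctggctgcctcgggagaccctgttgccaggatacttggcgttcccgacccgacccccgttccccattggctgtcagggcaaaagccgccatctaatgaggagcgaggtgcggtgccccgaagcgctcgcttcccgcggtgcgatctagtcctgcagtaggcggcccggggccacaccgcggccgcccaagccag
The IRF9 window holds ACGTG on both strands, as the palindrome at positions 180 to 185, and a TTCNNNGAA match at positions 188 to 196. The REC8 window holds none of the 3 motifs. Of all 27305 promoters 21.6% hold ACGTG, as do 7 of the 32 matched promoters of genes called higher (21.9%) and 10 of the 38 matched promoters of genes called lower (26.3%), beside 27.1% of the 9694 matched tested genes. The interferon-stimulated element was in 0 of 32 and 2 of 38 of these promoters (3.65% of all promoters, 2.70% of those of tested genes), and TTCNNNGAA in 2 of 32 and 5 of 38 (6.25% and 13.2%, against 7.88% of all and 6.19% of those of tested genes). These are matches of letters and not measured binding.

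Among the interferon-stimulated genes examined IRF9 alone passed. Of 39 tested interferon-stimulated genes it was the 1 called (2.56% of the list, beside 0.757% of all genes). By sign 25 were higher and 14 lower, with a median log2 fold change of 0.082 against 0 for all genes. On the log2 scale IFIT1, an antiviral RNA sensor, had a change of 0.86 (adjusted p = 0.139) and IFIT3, its partner, 0.49 (adjusted p = 0.211), while HERC5, which attaches the ubiquitin-like protein ISG15, had -0.90 (adjusted p = 0.0557) and the RNA sensor IFIH1 -0.64 (adjusted p = 0.109), all by edgeR. None of 17 tested genes of MHC class I and peptide loading passed, with B2M, the shared light chain, at 0.25 (adjusted p = 0.191) on the log2 scale.

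NANOS1, a gene known from germ cells as REC8 is, also rose. NANOS1 (chr10:119029716-119033732) encodes an RNA-binding repressor of translation and had 152, 141, 132 and 128 CPM in post-hypoxic replicates 2 to 5, against 44.9, 76.8, 60.4, 85.5 and 82.1 CPM in non-hypoxic replicates 1 to 5. No post-hypoxic library fell within the non-hypoxic range, and the log2 fold change was 0.98 (SE 0.16, adjusted p = 0.00312). Its 3′ end overlaps that of EIF3A on the other strand, and since the strand setting of the counting is not given, its level is uncertain. Of 61 genes in a list for germline, meiosis and cancer-testis functions only 13 had enough counts to be tested, and REC8 and NANOS1 were the 2 called (15.4%, beside 0.757% of all genes). The meiotic genes SYCP2 and DMC1 had log2 fold changes of -1.09 (adjusted p = 0.198) and 0.51 (adjusted p = 0.246).

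Genes that act on actin and on small GTPases changed in both directions. CALD1, MYLK, PALLD and SRGAP3 are the called members of the list of actin filament regulators. The other genes of this group were set beside them after their values were seen. CALD1 (chr7:134744252-134970728) encodes caldesmon, which binds actin and restrains myosin. It stood at 12.3, 9.55, 11.1 and 15.9 CPM in post-hypoxic replicates 2 to 5 and at 58.3, 44.5, 44.3, 49.5 and 46.4 CPM in non-hypoxic replicates 1 to 5, a 3.94-fold fall with a log2 fold change of -1.98 (SE 0.14, adjusted p = 1.16e-08). All post-hypoxic libraries lay far below all non-hypoxic ones. MYLK (chr3:123610049-123884331) encodes myosin light-chain kinase, which activates myosin. It had 267, 217, 269.8 and 247 CPM in post-hypoxic replicates 2 to 5, against 135, 154, 146, 155 and 148 CPM in non-hypoxic replicates 1 to 5, and rose 1.699-fold, with a log2 fold change of 0.76 (SE 0.13, adjusted p = 0.00796). An antisense gene, MYLK-AS1, covers its 3′ end, and the reads of both cannot be told apart.

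Among activators and inhibitors of small GTPases, ARHGEF3, an exchange factor, had 97.5 to 120.1 CPM in post-hypoxic and 50.8 to 77.3 CPM in non-hypoxic libraries (log2 fold change 0.71, SE 0.12, adjusted p = 0.00796). RHOV, an atypical GTPase of this family, had 28.7, 43.6, 26.2 and 23.6 CPM in post-hypoxic replicates 2 to 5, against 14.3, 15.95, 16.7, 19.1 and 15.8 CPM in non-hypoxic replicates 1 to 5, with post-hypoxic replicate 3 the highest. The rise of RHOV was 1.84-fold (adjusted p = 0.0416 by edgeR). DLC1, a GTPase-activating protein that switches such proteins off, rose 2.51-fold (9.53 to 20.9 CPM in post-hypoxic, 3.45 to 6.77 CPM in non-hypoxic libraries, adjusted p = 0.0454). LIMCH1, an activator of non-muscle myosin, rose 1.69-fold (adjusted p = 0.0321).

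SRGAP3, MICAL2, PALLD, MYOF and DST fell. SRGAP3, an inactivator of Rac, had 5.32, 8.95, 5.33 and 8.62 CPM in post-hypoxic replicates 2 to 5 and 20.7, 17.9, 18.98, 9.54 and 11.2 CPM in non-hypoxic replicates 1 to 5, so that the groups were separated by less than 1 CPM. MICAL2, an enzyme that oxidises actin and takes filaments apart, had 11.5, 13.1, 8.20 and 10.4 CPM in post-hypoxic replicates 2 to 5 and 18.8, 24.6, 24.2, 19.1 and 19.1 CPM in non-hypoxic replicates 1 to 5 (log2 fold change -0.97, SE 0.20, adjusted p = 0.0279). PALLD, which cross-links actin filaments, fell 1.49-fold (adjusted p = 0.0416), with CBR4 over its 3′ end on the other strand. MYOF, a membrane repair protein, fell 1.44-fold (adjusted p = 0.0248), and DST, which links keratin filaments to the basal membrane, 1.49-fold (adjusted p = 0.0416). Of 36 tested actin filament regulators 1 was called higher and 3 lower (11.1%, beside 0.757% of all genes), with 12 higher and 24 lower by sign and a median of -0.109 on the log2 scale. In fits that left out 1 library, CALD1, MYLK and ARHGEF3 kept the call in 9 of 9, while RHOV and DLC1 kept it in 1, LIMCH1 and PALLD in 3, SRGAP3, MICAL2 and MYOF in 4 and DST in 2.

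**Figure D2:**
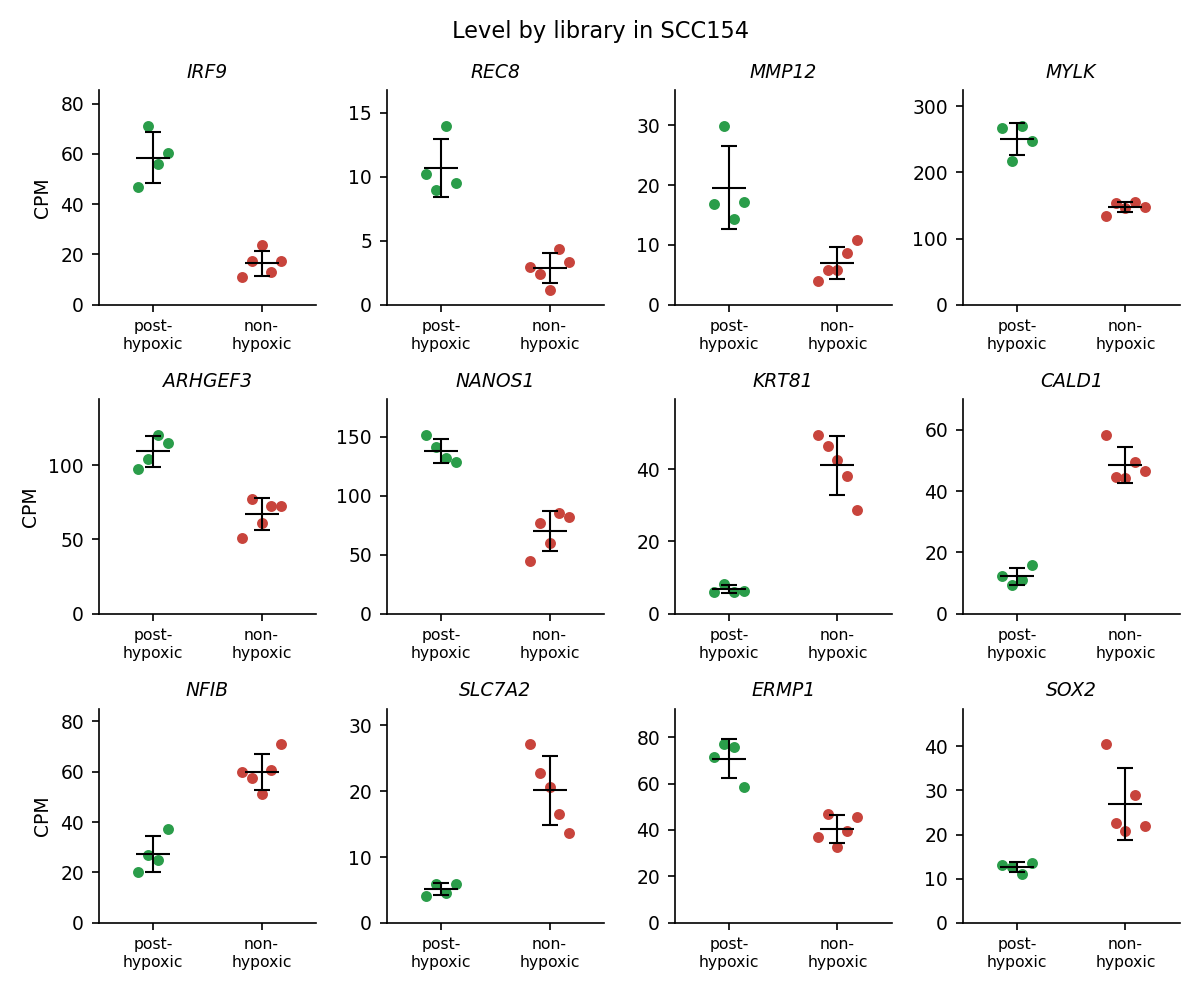
Levels of 12 genes in each SCC154 library (CPM, linear axes from 0). Post-hypoxic libraries (green, n = 4) stand left of non-hypoxic libraries (red, n = 5), and bars give the mean and SD; in none of the 12 do the groups overlap.

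Of 35 tested matrix proteases and protease inhibitors, 4 were called higher and 1 lower (14.3%, beside 0.757% of all genes), with 20 higher and 15 lower by sign. MMP12 (chr11:102862736-102875034), a secreted metalloprotease that degrades elastin, had 16.8, 29.8, 14.4 and 17.2 CPM in post-hypoxic replicates 2 to 5 and 3.95, 5.80, 5.75, 8.68 and 10.8 CPM in non-hypoxic replicates 1 to 5. Post-hypoxic replicate 3 was the highest, and the lowest post-hypoxic library was still above the highest non-hypoxic one. Its log2 fold change was 1.42 (SE 0.28, adjusted p = 0.0212). CTSL, a lysosomal and secreted cysteine protease, had 174 to 270.3 CPM in post-hypoxic and 110.1 to 164 CPM in non-hypoxic libraries (1.51-fold, adjusted p = 0.0424), and ST14, the membrane-bound serine protease matriptase, 148 to 154 and 101 to 124 CPM (1.40-fold, adjusted p = 0.0289). TIMP1, an inhibitor of metalloproteases, rose 1.52-fold (adjusted p = 0.0358).

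In the opposite direction, ADAMTS6, a matrix metalloprotease of another family, had 14.3, 15.5, 12.3 and 19.97 CPM in post-hypoxic replicates 2 to 5, against 37.02, 26.6, 32.8, 23.9 and 33.6 CPM in non-hypoxic replicates 1 to 5 (log2 fold change -0.99, SE 0.21, adjusted p = 0.0326). The median over the list, 0.092 on the log2 scale, became -0.024 when post-hypoxic replicate 3 and non-hypoxic replicate 1 were left out, with 17 higher and 18 lower by sign and 1 called. VWA1, an extracellular matrix protein of the pericellular zone, had 18.4, 23.9, 30.3 and 18.2 CPM in post-hypoxic replicates 2 to 5 and 13.8, 11.1, 11.5, 11.7 and 8.71 CPM in non-hypoxic replicates 1 to 5 (log2 fold change 1.00, SE 0.22, adjusted p = 0.0346). It was the 1 called of 28 tested integrins and matrix proteins (3.57%, beside 0.757% of all genes). MMP12 kept its call in 7 of 9 fits that left out 1 library, ST14 in 4, TIMP1, ADAMTS6 and VWA1 in 3 and CTSL in 2.

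EDN1, INHBB and FST, which encode secreted signals or their binders, fell, and IGFBP6 rose. EDN1, the vasoconstrictor peptide endothelin, had 17.6, 9.55, 26.2 and 23.6 CPM in post-hypoxic replicates 2 to 5, against 75.03, 33.8, 27.6, 39.9 and 36.9 CPM in non-hypoxic replicates 1 to 5. Non-hypoxic replicate 1 was by far the highest, and the nearest libraries of the groups lay close to each other. The log2 fold change of EDN1 was -1.12 (SE 0.27, adjusted p = 0.0493). INHBB, which encodes a subunit of activin B, fell 1.61-fold (43.1 to 61.03 CPM in post-hypoxic, 73.7 to 103 CPM in non-hypoxic libraries, adjusted p = 0.0326), and FST, follistatin, which binds and neutralises activin, fell 1.800-fold (49.5 to 88.6 CPM in post-hypoxic, 109 to 139 CPM in non-hypoxic libraries, adjusted p = 0.0279). Of 28 tested genes of TGF-beta and activin signalling INHBB and FST were the 2 called (7.14%, beside 0.757% of all genes); 7 were higher and 20 lower by sign, with a median of -0.139. TGFB2, at -0.98 on the log2 scale, was short of the threshold (adjusted p = 0.0527). IGFBP6, which binds insulin-like growth factors, rose 1.44-fold (383 to 503 CPM in post-hypoxic, 279 to 315 CPM in non-hypoxic libraries, adjusted p = 0.0148). In fits that left out 1 library IGFBP6 kept its call in 8 of 9, FST in 4, INHBB in 3 and EDN1 in 1.

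In a mixed list of nuclear factor I genes and squamous transcription factors, 3 members were called lower and RUNX2 higher. NFIB (chr9:14081843-14398983), of the nuclear factor I family, had 20.1, 26.9, 25.01 and 37.2 CPM in post-hypoxic replicates 2 to 5 and 59.7, 57.5, 51.2, 60.7 and 70.9 CPM in non-hypoxic replicates 1 to 5, with no overlap and a log2 fold change of -1.14 (SE 0.16, adjusted p = 0.000431). SOX2 (chr3:181711924-181714436), which maintains squamous progenitors and is often amplified in squamous carcinoma, had 13.1, 12.5, 11.1 and 13.6 CPM in post-hypoxic replicates 2 to 5, against 40.5, 22.7, 20.7, 29.1 and 21.98 CPM in non-hypoxic replicates 1 to 5. The post-hypoxic libraries lay close together, and the highest non-hypoxic value was that of replicate 1. Its log2 fold change was -1.10 (SE 0.23, adjusted p = 0.0289), and the surrounding transcript SOX2-OT runs over it on the same strand. TSHZ2, a zinc-finger repressor, had 8.19, 16.7, 6.56 and 10.4 CPM in post-hypoxic replicates 2 to 5 and 22.2, 22.2, 23.6, 19.5 and 24.9 CPM in non-hypoxic replicates 1 to 5, a log2 fold change of -1.14 (SE 0.24, adjusted p = 0.033). RUNX2, best known from bone formation, rose 2.52-fold at a low level (4.92 to 6.55 CPM in post-hypoxic, 1.93 to 2.49 CPM in non-hypoxic libraries, adjusted p = 0.0321 by edgeR).

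These 4 were the called members among 33 tested factors (12.1%, beside 0.757% of all genes), of which 15 were higher and 18 lower by sign. TP63, the master factor of squamous epithelium, differed by 0.08 (adjusted p = 0.856) on the log2 scale, SOX9 -0.34 (adjusted p = 0.577) and KLF5 -0.03 (adjusted p = 0.948), and none of these passed. Outside the list, FOXC1, a forkhead factor, fell 1.47-fold (adjusted p = 0.0416), HIVEP1, a zinc-finger factor, 1.73-fold (adjusted p = 0.0316) and the zinc-finger gene ZFP28 2.00-fold, with 10.3 to 17.2 CPM in post-hypoxic and 21.6 to 33.1 CPM in non-hypoxic libraries (adjusted p = 0.0421). NFIB kept its call in all 9 fits that left out 1 library, SOX2 in 4, TSHZ2 and HIVEP1 in 3, RUNX2 in 2 and FOXC1 and ZFP28 in 1.

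In the main fit the change of CALD1 and that of NFIB were the 2 of 12291 (0.0163%) that differed between the lines. Over the alternatives this number ran from 2 to 224, the most with the replicate number as a block. The difference between the SCC154 and the FADU change was -2.03 for CALD1 (adjusted p = 5.48e-07 by edgeR) and -1.40 for NFIB (adjusted p = 0.00811) on the log2 scale, with FADU changes of 0.06 and 0.26. In FADU no gene passed the threshold. Of the genes called in SCC154, 20 of the 41 rises and 22 of the 52 falls had the same sign there.

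Among structural epithelial genes KRT81 changed and the keratins of squamous epithelium did not pass. KRT81 (chr12:52285913-52291534), a hair keratin, had 6.14, 8.35, 6.15 and 6.35 CPM in post-hypoxic replicates 2 to 5, against 49.4, 46.4, 42.6, 38.2 and 28.6 CPM in non-hypoxic replicates 1 to 5, a 6.10-fold fall with a log2 fold change of -2.61 (SE 0.24, adjusted p = 7.26e-07). It lies over KRT86 on the other strand and has near-identical relatives, so its level is uncertain. It was the 1 called of 14 tested keratins (7.14%, beside 0.757% of all genes). On the log2 scale KRT13 had 0.85 (adjusted p = 0.102), KRT14 0.67 (adjusted p = 0.326) and KRT17 -0.24 (adjusted p = 0.479). S100A14, a calcium-binding protein of epithelia, rose 1.47-fold (adjusted p = 0.0493) and AHNAK, a large scaffold protein, 1.40-fold (adjusted p = 0.0378). L1CAM, a cell adhesion molecule, fell 3.95-fold at a low level (1.36 to 2.87 CPM in post-hypoxic, 6.91 to 10.4 CPM in non-hypoxic libraries, adjusted p = 0.022), and TM4SF1, a membrane protein of migrating cells, rose at a lower one (3.18 to 7.38 CPM in post-hypoxic, 0 to 1.93 CPM in non-hypoxic libraries, adjusted p = 0.0431). KRT81 kept its call in 9 of 9 fits that left out 1 library, L1CAM in 4, AHNAK in 3 and S100A14 and TM4SF1 in 1.

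Carriers and enzymes of metabolism changed singly. SLC7A2 (chr8:17497088-17570573), a carrier of arginine and other cationic amino acids, had 4.10, 5.97, 4.51 and 5.90 CPM in post-hypoxic replicates 2 to 5, against 27.2, 22.7, 20.7, 16.5 and 13.7 CPM in non-hypoxic replicates 1 to 5, with a log2 fold change of -1.98 (SE 0.25, adjusted p = 0.000131). SLC6A14, a carrier of neutral and cationic amino acids, rose 2.49-fold (9.08 to 16.4 CPM in post-hypoxic, 2.88 to 5.80 CPM in non-hypoxic libraries, adjusted p = 0.0416). These were the 2 called of 23 tested amino acid transporters (8.7%, beside 0.757% of all genes). LRATD1 (chr2:14632686-14650814), named for a domain it shares with a retinol acyltransferase, had 6.14, 4.18, 5.33 and 3.18 CPM in post-hypoxic replicates 2 to 5 and 17.8, 21.3, 20.7, 17.8 and 22.4 CPM in non-hypoxic replicates 1 to 5, a log2 fold change of -2.05 (SE 0.26, adjusted p = 0.000131). Its post-hypoxic libraries were all below the lowest non-hypoxic one. LRAT itself changed by -0.73 on the log2 scale and did not pass (adjusted p = 0.069).

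NAD synthesis showed a change in each direction. NMNAT2, which makes NAD from its mononucleotide, had 32.4, 31.6, 28.7 and 34.5 CPM in post-hypoxic replicates 2 to 5, against 5.92, 21.3, 12.1, 17.4 and 19.5 CPM in non-hypoxic replicates 1 to 5, where replicate 1 was the lowest. Its log2 fold change was 1.04 (SE 0.25, adjusted p = 0.0453). NAMPT, which makes that mononucleotide from nicotinamide, had 366, 446, 426 and 427 CPM in post-hypoxic replicates 2 to 5, against 628, 569, 640.0, 599.9 and 574 CPM in non-hypoxic replicates 1 to 5, a 1.45-fold fall (adjusted p = 0.0321). The 17 other tested genes of the list did not pass, so that 10.5% of it was called, beside 0.757% of all genes. RRAGD, a GTPase that signals amino acids to mTORC1, had 2 counts over the 4 post-hypoxic and 25 over the 5 non-hypoxic libraries, a ratio of 0.0964 (exact 95% counting interval 0.0111 to 0.386; adjusted p = 0.0183 by edgeR).

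UGT8 and SGMS1, enzymes of sphingolipids set together after their values were seen, differed in direction. UGT8, which makes galactosylceramide, rose 2.57-fold (8.17 to 21.7 CPM in post-hypoxic, 4.03 to 6.42 CPM in non-hypoxic libraries, adjusted p = 0.021), and SGMS1, which makes sphingomyelin, fell 1.60-fold (adjusted p = 0.0416). MAN2B2, a lysosomal mannosidase, had 51.2, 38.2, 80.8 and 39.9 CPM in post-hypoxic replicates 2 to 5 and 22.7, 34.3, 24.7, 38.2 and 28.6 CPM in non-hypoxic replicates 1 to 5, with post-hypoxic replicate 4 the highest (log2 fold change 0.83, SE 0.20, adjusted p = 0.0452). The groups of MAN2B2 all but touched, at 38.19 CPM in post-hypoxic replicate 3 and 38.17 CPM in non-hypoxic replicate 4. ERMP1, a metallopeptidase of the endoplasmic reticulum, had 71.3, 76.97, 75.9 and 58.5 CPM in post-hypoxic replicates 2 to 5 and 37.02, 46.9, 32.8, 39.5 and 45.6 CPM in non-hypoxic replicates 1 to 5 (log2 fold change 0.80, SE 0.14, adjusted p = 0.0059), with RIC1 over its 3′ end on the other strand. CA13, a carbonic anhydrase of the cytosol, rose 1.69-fold (adjusted p = 0.0416), and PPAT, the first enzyme of purine synthesis, fell 1.47-fold (adjusted p = 0.0432). In fits that left out 1 library, SLC7A2, LRATD1 and ERMP1 kept the call in 9 of 9, RRAGD in 7, UGT8 in 5, MAN2B2 in 3, SLC6A14, NAMPT, CA13 and PPAT in 2, SGMS1 in 1 and NMNAT2 in 0.

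PPP3CA, NFATC1, ITPR2 and CADPS2, which act in calcium signalling, were called lower. PPP3CA, a catalytic subunit of the calcium-activated phosphatase calcineurin, fell 1.34-fold (adjusted p = 0.0452). NFATC1, a transcription factor that calcineurin activates, had 0.410, 0.597, 1.23 and 1.36 CPM in post-hypoxic replicates 2 to 5 and 3.46, 3.38, 2.88, 4.77 and 3.32 CPM in non-hypoxic replicates 1 to 5, close to the limit of detection (adjusted p = 0.0278). ITPR2, a calcium release channel, fell 1.78-fold (9.01 to 14.9 CPM in post-hypoxic, 15.6 to 27.03 CPM in non-hypoxic libraries, adjusted p = 0.0408). These genes were set together after their values were seen. CADPS2, which primes dense-core vesicles for calcium-triggered release, had 11.1, 13.7, 3.69 and 7.26 CPM in post-hypoxic replicates 2 to 5 and 26.2, 18.9, 18.98, 14.3 and 18.7 CPM in non-hypoxic replicates 1 to 5, with post-hypoxic replicate 4 the lowest (log2 fold change -1.15, SE 0.25, adjusted p = 0.033).

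PTPN11, the phosphatase SHP2 that relays receptor signals to Ras, fell 1.39-fold, with 141 to 222 CPM in post-hypoxic and 246 to 265 CPM in non-hypoxic libraries (adjusted p = 0.0376). GRB10, an adaptor that dampens insulin receptor signals, fell 2.33-fold (adjusted p = 0.0416), although its groups overlapped through non-hypoxic replicate 1, which was low. PTPN13 and PDE5A, a tyrosine phosphatase and the phosphodiesterase of cyclic GMP, fell 1.54-fold and 1.73-fold (adjusted p = 0.0417 and 0.033 by edgeR). RASGRF1, a calcium-responsive activator of Ras, was the exception, with 20.1, 35.8, 22.1 and 24.96 CPM in post-hypoxic replicates 2 to 5 and 9.87, 16.9, 16.1, 13.01 and 12.4 CPM in non-hypoxic replicates 1 to 5 (log2 fold change 0.90, SE 0.19, adjusted p = 0.0321). It was the 1 called of 29 tested genes of EGFR and Ras signalling (3.45%, beside 0.757% of all genes). Of these 29, 8 were higher and 21 lower by sign, with a median of -0.192. None of the genes of both paragraphs on signalling passed in all 9 fits that left out 1 library; CADPS2, PPP3CA and PTPN11 passed in 2, RASGRF1 and ITPR2 in 3, NFATC1 and PDE5A in 4, and GRB10 and PTPN13 in 1.

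Of the cilium genes 3 were called, all higher. FHAD1 (chr1:15247272-15400283), which encodes a protein with a phosphopeptide-binding domain, had 15.6, 21.5, 13.1 and 22.7 CPM in post-hypoxic replicates 2 to 5 and 6.91, 5.80, 10.9, 6.51 and 7.05 CPM in non-hypoxic replicates 1 to 5, with a log2 fold change of 1.29 (SE 0.22, adjusted p = 0.00794). Its non-hypoxic replicate 3 stood above the other 4 but below every post-hypoxic library. CFAP300, needed to assemble the dynein arms of motile cilia, had 51.2, 48.9, 58.6 and 41.3 CPM in post-hypoxic replicates 2 to 5 and 34.1, 29.96, 23.6, 26.02 and 21.98 CPM in non-hypoxic replicates 1 to 5 (log2 fold change 0.89, SE 0.17, adjusted p = 0.0183). BBS2, part of the complex that carries membrane proteins to cilia, rose 1.46-fold (adjusted p = 0.0417), with OGFOD1 over its 3′ end on the other strand. These were the called members of 41 tested (7.32%, beside 0.757% of all genes), of which 21 were higher and 20 lower by sign. In fits that left out 1 library FHAD1 kept the call in 9 of 9, CFAP300 in 5 and BBS2 in 2.

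Genes of DNA repair, chromatin and transcription were called singly, in both directions, and were set together after their values were seen. None is a called member of a list. Of 54 tested chromatin regulators 0 were called, beside 0.757% of all genes, with 17 higher and 37 lower by sign. SLF2, a loader of the SMC5/6 complex, fell 1.42-fold (adjusted p = 0.0399), SETD5, a chromatin regulator, 1.34-fold (adjusted p = 0.0321), TAF7, a subunit of the general transcription factor TFIID, 1.40-fold (adjusted p = 0.0354), and SRPK1, a kinase of splicing factors, 1.58-fold (adjusted p = 0.0347). IGF2BP3, an RNA-binding protein of fetal tissue and tumours, had 16.8, 14.9, 12.7 and 16.8 CPM in post-hypoxic replicates 2 to 5 and 23.7, 29.96, 35.1, 23.4 and 33.2 CPM in non-hypoxic replicates 1 to 5 (log2 fold change -0.92, SE 0.19, adjusted p = 0.0248). MALSU1, at a mean of 18.7 CPM in SCC154, lies over its 3′ end on the other strand, so the level of IGF2BP3 is uncertain.

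Those that rose were MRNIP, TADA1, NFRKB and TRNP1. MRNIP, a partner of the complex that senses double-strand breaks, had 51.6, 46.5, 64.8 and 45.8 CPM in post-hypoxic replicates 2 to 5 and 29.6, 28.99, 27.6, 32.96 and 29.4 CPM in non-hypoxic replicates 1 to 5 (log2 fold change 0.81, SE 0.18, adjusted p = 0.0346), but its 3′ end lies under SQSTM1 on the other strand. TADA1, a subunit of the SAGA coactivator, rose 1.57-fold (adjusted p = 0.0494) and NFRKB, a subunit of the INO80 remodeller, 1.39-fold (adjusted p = 0.0419). TRNP1, a nuclear protein known from the growth of the cortex, had 96.7, 109, 121 and 112 CPM in post-hypoxic replicates 2 to 5, against 49.9, 57.99, 68.4, 68.96 and 66.8 CPM in non-hypoxic replicates 1 to 5 (log2 fold change 0.81, SE 0.15, adjusted p = 0.017). TRNP1 kept its call in 7 of 9 fits that left out 1 library; SRPK1, IGF2BP3, MRNIP, SLF2 and SETD5 kept it in 3 or 4, and TAF7, TADA1 and NFRKB in 2.

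The noncoding genes called were LINC00467, NAPA-AS1, ZFAND2A-DT and CASC19, all higher. NAPA lies over the 3′ end of NAPA-AS1 and PCAT1 over that of CASC19, each on the other strand. LINC00467 had 29.9, 34.01, 35.7 and 31.8 CPM in post-hypoxic replicates 2 to 5, against 8.89, 18.9, 20.1, 21.3 and 19.5 CPM in non-hypoxic replicates 1 to 5, a log2 fold change of 0.88 (SE 0.19, adjusted p = 0.0321), with replicate 1 the lowest of the non-hypoxic libraries. The pseudogenes MTND5P11 and DNAJC8P2 were lower (-2.23 and -0.63 on the log2 scale), but the first is a copy of a mitochondrial gene and the second lies inside STAG1 on the same strand, so that neither can be told from its relative. ZNG1B, which has near-identical copies, fell 1.89-fold (13.9, 13.1, 8.20 and 9.53 CPM in post-hypoxic replicates 2 to 5, 18.8, 21.3, 21.3, 21.3 and 22.4 CPM in non-hypoxic replicates 1 to 5, adjusted p = 0.0334 by edgeR). MTND5P11 kept its call in 7 of 9 fits that left out 1 library, LINC00467 in 4 and DNAJC8P2 in 3. ZFAND2A-DT, CASC19 and ZNG1B kept it in 2 and NAPA-AS1 in 1.

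The remaining called genes shared no group. TLCD5, a membrane protein, had 9.83, 11.3, 9.43 and 9.53 CPM in post-hypoxic replicates 2 to 5 and 3.46, 4.35, 5.18, 4.34 and 4.98 CPM in non-hypoxic replicates 1 to 5 (log2 fold change 1.15, SE 0.22, adjusted p = 0.0148) and kept its call in all 9 fits that left out 1 library. PPP4R4, a regulatory subunit of protein phosphatase 4, had 2.87, 2.98, 2.05 and 1.82 CPM in post-hypoxic replicates 2 to 5, against 5.92, 6.77, 7.48, 6.94 and 7.88 CPM in non-hypoxic replicates 1 to 5 (log2 fold change -1.52, SE 0.29, adjusted p = 0.0179), and kept its call in 7. CCDC88C, a binding partner of Dishevelled, rose 1.54-fold (adjusted p = 0.0304), as did GOLPH3L of the Golgi apparatus, the SNARE protein VTI1B and MSANTD4, by 1.41, 1.67 and 1.42-fold. WWC2, an activator of Hippo signalling, fell 1.52-fold (adjusted p = 0.0248) and the nuclear import receptor IPO5 1.46-fold (adjusted p = 0.0248). CD22, a lectin best known from B cells, fell 2.13-fold at 7.78 to 14.97 CPM in post-hypoxic and 12.8 to 34.5 CPM in non-hypoxic libraries, which overlapped. The falls of ABCF1, which acts in translation initiation, the chaperone PPID, the ubiquitin ligase adaptors SPOPL and KLHL5 and the zinc-finger genes ZNF318 and ZNF283 ran from 1.35-fold to 1.56-fold. ETFDH lies over the 3′ end of PPID and ARG2 over that of VTI1B, each on the other strand. Apart from TLCD5 and PPP4R4, the genes of this paragraph kept the call in 1 to 5 of the 9 fits that left out 1 library.

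**Figure D3:**
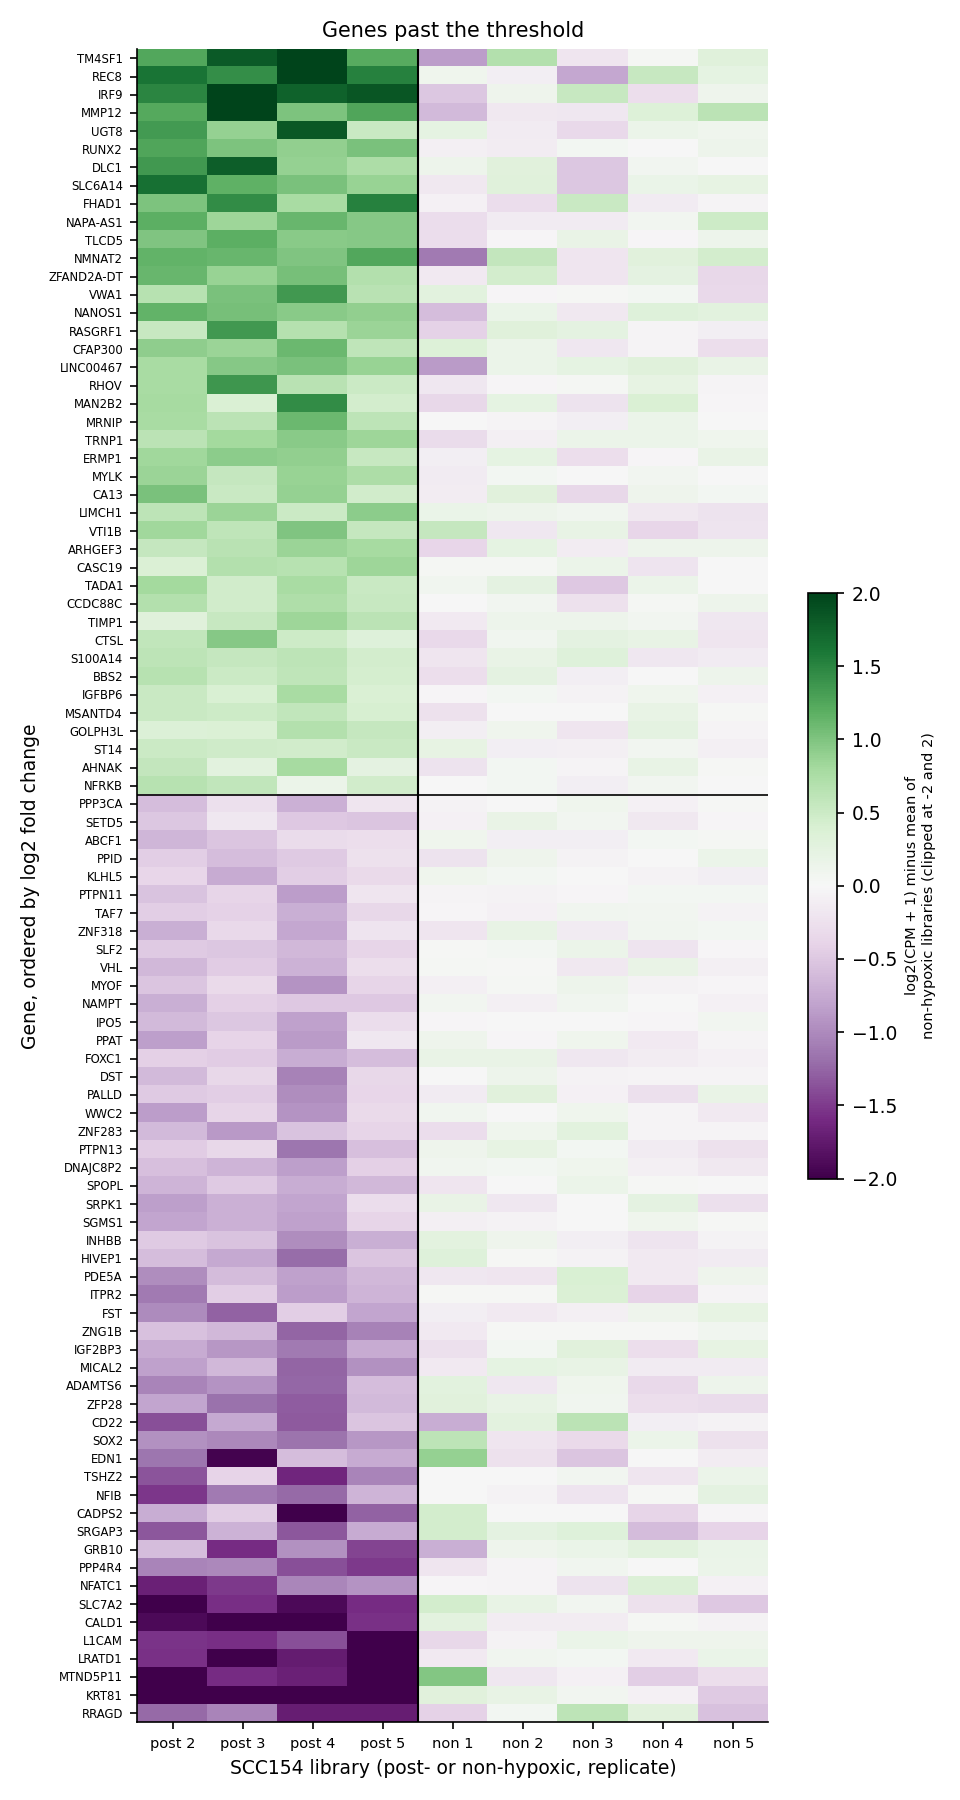
The genes past the threshold in each SCC154 library, as log2(CPM + 1) minus the mean of the non-hypoxic libraries (colour scale clipped at -2 and 2), ordered by log2 fold change. The 4 post-hypoxic libraries stand left of the 5 non-hypoxic ones, with the higher genes above the lower ones; 1 lower gene is not drawn.

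None of 40 gene lists separated all post-hypoxic from all non-hypoxic libraries by its median level. For these lists, each with at least 5 members at a mean of 10 CPM, the median level of the list was taken in each library as log2(CPM + 1) minus the mean of the non-hypoxic libraries, and in 0 of the 40 were the groups without overlap. For 26 HIF targets these medians were 0.078, 0.304, 0.209 and 0.065 in post-hypoxic replicates 2 to 5, against -0.085, 0.014, -0.042, 0.114 and 0.114 in non-hypoxic replicates 1 to 5. Of the 34 HIF targets tested, 27 were higher and 7 lower by sign at a median log2 fold change of 0.278; 0 were called. When post-hypoxic replicate 3 and non-hypoxic replicate 1 were left out, this median was 0.172.

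Summed levels, which follow the most abundant members, did not overlap between the groups for 4 of the 40 lists. The sum of germline genes was 687 to 828 CPM in post-hypoxic and 438 to 647 CPM in non-hypoxic libraries, with SMC1B and NANOS1 among the most abundant. The sum for epithelial-mesenchymal transition, led by TGFBI, was 1485 to 1687 CPM in post-hypoxic and 1248 to 1440.0 CPM in non-hypoxic libraries. Sums were lower in post-hypoxic libraries for NAD synthesis, led by NAMPT (1020.0 to 1162 CPM, against 1216 to 1341 CPM in non-hypoxic libraries), and for stem-cell markers, led by ALDH1A3 (1935 to 2092 CPM, against 2097 to 2319 CPM in non-hypoxic libraries).

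The hypoxia genes named whatever their result did not pass in the main fit. CA9, the carbonic anhydrase most used as a hypoxia marker, had 2 and 3 counts in post-hypoxic replicates 3 and 4 and no count in the other 7 libraries, which is near the limit of detection. BNIP3, a receptor for the removal of mitochondria, had 66.8, 119, 89.4 and 75.8 CPM in post-hypoxic replicates 2 to 5, against 52.3, 63.8, 64.98, 63.3 and 72.2 CPM in non-hypoxic replicates 1 to 5 (log2 fold change 0.46, SE 0.16, adjusted p = 0.152). VEGFA, the main growth factor of vessels, had 62.7, 84.7, 57.4 and 66.7 CPM in post-hypoxic replicates 2 to 5 and 32.1, 113, 121, 103 and 102 CPM in non-hypoxic replicates 1 to 5. All post-hypoxic libraries were below 4 of the non-hypoxic ones, but non-hypoxic replicate 1 was the lowest of all 9, and VEGFA was not called (log2 fold change -0.48, SE 0.25, adjusted p = 0.353). When post-hypoxic replicate 3 and non-hypoxic replicate 1 were left out it passed, at -0.81 (adjusted p = 0.0311 by edgeR). An edgeR fit with the replicate number as a block takes same-numbered libraries as pairs, which no label states. In that fit VEGFA (-0.70, adjusted p = 0.000348) and BNIP3 (0.37, adjusted p = 0.0468) passed. NDRG1 had 4.10, 71.6, 4.51 and 9.07 CPM in post-hypoxic replicates 2 to 5, against 11.9, 9.67, 15.5, 11.7 and 11.2 CPM in non-hypoxic replicates 1 to 5, so that replicate 3 alone was high. Its log2 fold change was 0.76, and -1.03 without that library; neither passed. SLC2A1, ADM, PDK1 and LDHA had log2 fold changes of 0.20, 0.25, 0.01 and 0.17 with adjusted p of 0.677, 0.553, 0.994 and 0.611.

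Lists for the cell cycle and DNA repair were slightly lower by sign, with 0 called. Of 49 tested genes of G1/S and DNA replication 12 were higher and 37 lower (median log2 fold change -0.127), and 20 and 29 (median -0.064) when post-hypoxic replicate 3 and non-hypoxic replicate 1 were left out. Of 45 genes of G2/M and mitosis 11 were higher and 34 lower (median -0.128), and of 45 genes of double-strand break repair 15 were higher and 30 lower (median -0.135). The library medians of the repair genes were -0.220, -0.265, -0.274 and -0.030 in post-hypoxic replicates 2 to 5, against 0.013, 0.056, -0.041, -0.037 and 0.027 in non-hypoxic replicates 1 to 5, so that post-hypoxic replicate 5 fell within the non-hypoxic range.

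**Figure D4:**
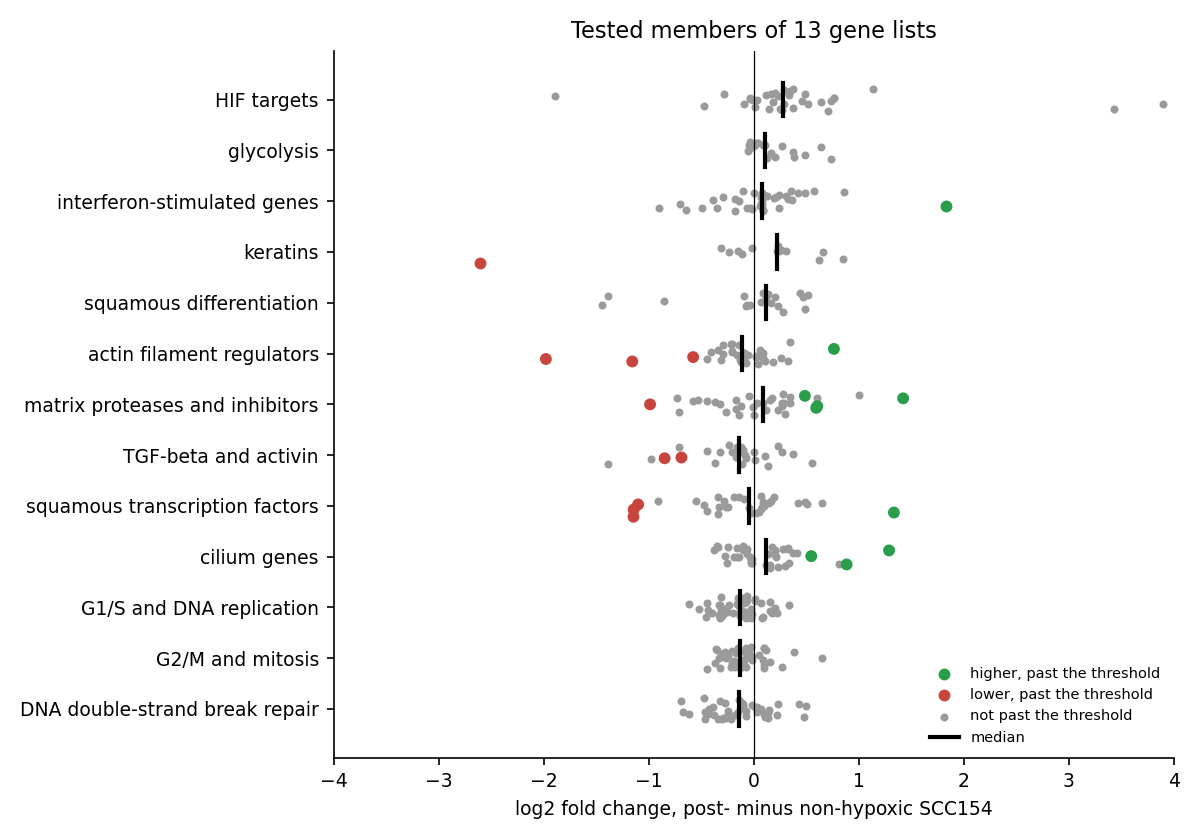
Log2 fold change between post- and non-hypoxic SCC154 libraries for the tested members of 13 lists, with 1 point per gene and a black bar at the median. Most members lie within 1 log2 unit of 0; HIF targets (median 0.278) lie to the right and the lists for replication, mitosis and break repair (medians -0.127, -0.128 and -0.135) to the left, with no called member.

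Some stretches of chromosomes held genes that moved together. They were singled out with their values in view, so no test is given. Of 575 windows of 2 Mb with at least 8 tested genes, 5% had a median below -0.169 and 5% above 0.182 on the log2 scale. The 2 lowest windows adjoin each other on the short arm of chromosome 3, from 10 to 12 Mb (median -0.521) and from 8 to 10 Mb (median -0.494). In this stretch 25 of 27 tested genes were lower, 3 of them called, and the median gene stood at 0.698 of its non-hypoxic level. Library medians of a region were taken only over its genes at a mean of 10 CPM or more, which were 22 in this stretch. These medians were -0.539, -0.416, -0.493 and -0.395 in post-hypoxic replicates 2 to 5, against 0.010, 0.018, -0.069, -0.116 and 0.058 in non-hypoxic replicates 1 to 5, without overlap. The median change of all 27 genes in FADU was -0.008.

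The 3 called genes of the stretch were SRGAP3 (chr3:8980591-9363053), SETD5 (chr3:9397615-9479240) and VHL (chr3:10141008-10152220). VHL, which marks HIF for degradation when oxygen is present, had 56.1, 62.7, 53.7 and 72.2 CPM in post-hypoxic replicates 2 to 5 and 89.8, 88.4, 77.6, 98.9 and 82.1 CPM in non-hypoxic replicates 1 to 5, a 1.43-fold fall (log2 fold change -0.52, SE 0.12, adjusted p = 0.0416). SETD5 had 187, 233, 189 and 185 CPM in post-hypoxic replicates 2 to 5 and 253, 301, 278, 237 and 262 CPM in non-hypoxic replicates 1 to 5 (log2 fold change -0.42, SE 0.09, adjusted p = 0.0321). Neighbours that did not pass had log2 fold changes of like size, such as RAD18, a ubiquitin ligase of damage tolerance, at -0.70 (adjusted p = 0.0557), ARPC4, a subunit of the actin-nucleating complex, at -0.53 (adjusted p = 0.0543), and FANCD2, of interstrand crosslink repair, at -0.43 (adjusted p = 0.0658). In fits that left out 1 library SRGAP3 kept its call in 4 of 9, SETD5 in 3 and VHL in 2.

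On the long arm of chromosome 19, from 36 to 38 Mb, 27 of 32 tested genes were lower with 0 called, at a median of -0.423. This window holds a cluster of KRAB zinc-finger genes, which mostly repress transposable elements, and all 22 of its tested protein-coding genes named ZNF or ZFP were lower by sign, where 177 of 353 zinc-finger genes were lower outside the regions described here. Some of the 22 were near the limit of detection, and their signs carry little weight. ZNF527 averaged 0 CPM in post-hypoxic and 0.087 CPM in non-hypoxic libraries, and ZNF850 0.10 and 0.19 CPM. The library medians of the window, over 23 genes at 10 CPM or more, were -0.347, -0.592, -0.265 and -0.182 in post-hypoxic replicates 2 to 5, against -0.153, 0.135, 0.014, -0.054 and 0.048 in non-hypoxic replicates 1 to 5. The zinc-finger genes ZNF567 and ZFP30 had log2 fold changes of -0.48 (adjusted p = 0.0848) and -0.56 (adjusted p = 0.0658). In FADU 24 of the 32 genes were higher.

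Upward regions were weaker. On the short arm of chromosome 9, from 4 to 6 Mb, 9 of 10 tested genes were higher and ERMP1 was called. Over the 6 of them at 10 CPM or more, the library medians were 0.605, 0.352, 0.263 and 0.249 in post-hypoxic replicates 2 to 5, against 0.054, 0.063, -0.005, -0.031 and -0.014 in non-hypoxic replicates 1 to 5. On the short arm of chromosome 10, from 4 to 6 Mb, 9 of 12 were higher (median 0.355), but the library medians of the groups, over 8 genes at 10 CPM or more, overlapped. Chromosome 14 as a whole had 306 of 415 tested genes higher by sign (73.7%, beside 49.5% of all genes with a position) and a median of 0.147. Its library medians, over 334 genes at 10 CPM or more, were 0.169, 0.140, 0.158 and 0.116 in post-hypoxic replicates 2 to 5, against 0.026, 0.028, 0.001, -0.013 and -0.021 in non-hypoxic replicates 1 to 5. Its FADU median over all 415 genes was 0.011. IRF9 and REC8 lie on this chromosome, and 24 of the 30 other tested genes within 1 Mb of IRF9 were higher, with a median of 0.244. DNA copy number was not measured, and its part in these regions was not tested.

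Of the 93 called genes, 13 had another called gene within 1 Mb, 11 of them in the same direction. Besides the pair on chromosome 14 and the 3 genes of chromosome 3, these were HIVEP1 with EDN1 on chromosome 6, and ST14 with NFRKB and MMP12 with CFAP300 on chromosome 11. IGFBP6 and KRT81 on chromosome 12 moved in opposite directions. How many of all tested genes lie as close to a called gene was not counted, so no clustering can be read from these numbers. Chromosome 4 had the largest share of called genes, 11 of 463 (2.38%, beside 0.757% of all genes tested). Of these 11, 8 were lower, among them PPP3CA, WWC2, PTPN13, PALLD and PDE5A.

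**Figure D5:**
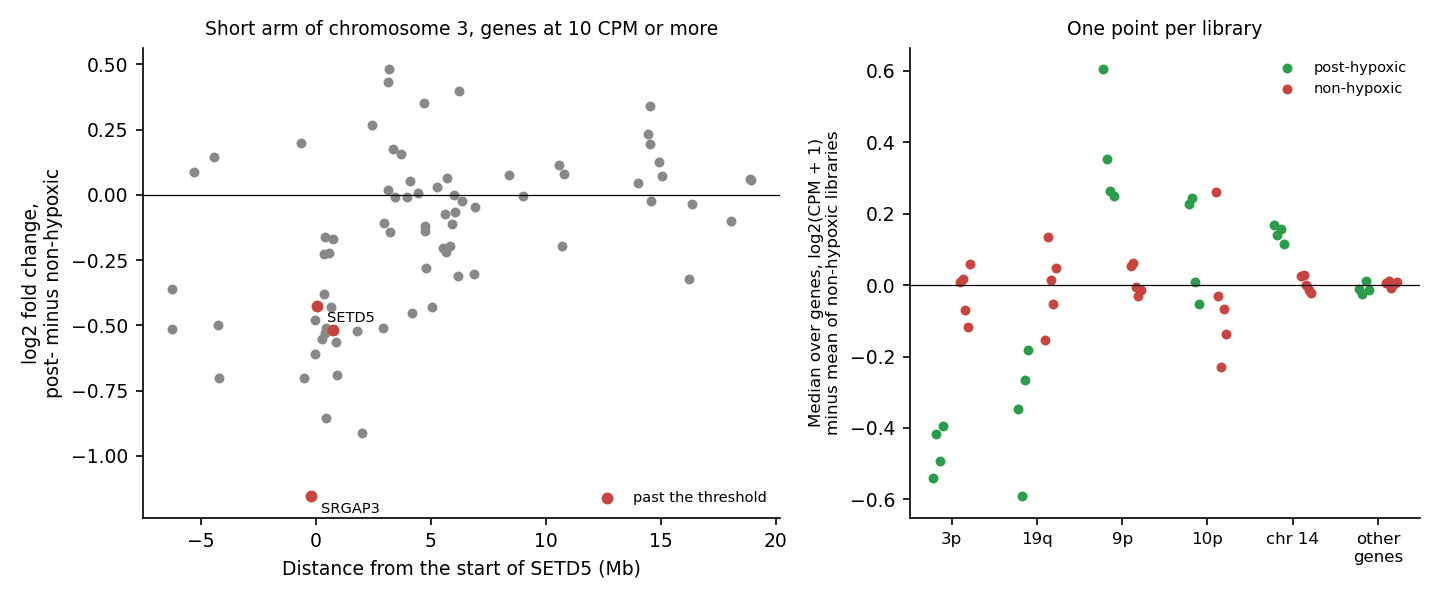
Left, log2 fold change of genes at a mean of 10 CPM or more on part of the short arm of chromosome 3 against their distance from the start of SETD5 (Mb), with called genes in red. The part drawn runs from TRNT1 (-6.26 Mb) to AZI2 (18.9 Mb), and the rest of the arm is not shown. Right, median level of each region in each library over its genes at a mean of 10 CPM or more (log2(CPM + 1) minus the mean of the non-hypoxic libraries), post-hypoxic in green left of non-hypoxic in red. The groups do not overlap for the regions of 3p, 19q, 9p and chromosome 14, overlap for that of 10p, and all other genes lie near 0.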

How the data were processed

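The deposited table holds raw counts per gene symbol for 18 libraries of polyA RNA, made with the QuantSeq 3′ kit per the labels' protocols. Per the submitters' processing notes the build was hg38 and the tools, named there without their roles, were HISAT2 2.2.1, featureCounts 1.5.1, UMI-tools 1.1.5, Trimmomatic 0.39, FastQC 0.11.9 and DESeq2. Whether counting used strand, and how it treated reads with several matches, is not given in the sources used here. Of 41120 symbols, 22591 had a count and 12291 passed the count filter of edgeR. The counts were fitted with edgeR 4.0.16 in R 4.3.3 (TMM factors, quasi-likelihood test, 4 group means over 18 libraries, 14 residual degrees of freedom, biological coefficient of variation 0.148), and genes were called at a Benjamini-Hochberg adjusted p under 0.05. The script was tested on simulated data first. Alternatives used DESeq2 1.42.0, limma 3.58.1 voom and other scalings, filters and sets of libraries.

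Any called gene could be named; library values were planned for the 15 largest rises and 15 largest falls at a mean of at least 10 CPM without overlap between groups, and values of other called genes were added where they help the account. Hypoxia genes were fixed by name, and 1 called gene and a few others are not reported here. The 43 gene lists, the members and the naming rule were chosen with earlier results of these data known, so list counts are given as descriptions, with no set test. Levels by library are log2(CPM + 1). Gene positions are from GENCODE on GRCh38 and promoters from RefSeq GRCh38.p14. Within the SCC154 groups, the 16 pairs of libraries all differed by more than sampling noise (chi-square per degree of freedom 1.90 to 11.7). The precision of single values is set by counts of about 1.68 to 2.44 per CPM and covers counting error only.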

Additional observations from a re-analysis of the deposited data

Results flagged for a closer look

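Single libraries stood far from the rest of their group in 11 of 204 sets of values examined, where chance alone flags about 1 in 20. Post-hypoxic replicate 3 was high for NDRG1 at 71.6 CPM (other post-hypoxic libraries 4.10 to 9.07 CPM), for SETD5 at 233 CPM (185 to 189 CPM) and for KRT81 at 8.35 CPM (6.14 to 6.35 CPM). Post-hypoxic replicate 4 was high for LDHA at 482 CPM, with 304 to 326 CPM in the other post-hypoxic libraries. Non-hypoxic replicate 1 was low for VEGFA at 32.1 CPM (other non-hypoxic libraries 102 to 121 CPM), LINC00467 at 8.88 CPM (18.9 to 21.2 CPM) and GRB10 at 7.40 CPM (14 to 15.6 CPM), and high for EDN1 at 75 CPM (27.6 to 39.9 CPM) and MTND5P11 at 26.2 CPM (9.11 to 12.1 CPM). Non-hypoxic replicate 3 was high for FHAD1 at 10.9 CPM (5.80 to 7.05 CPM), and non-hypoxic replicate 5 for IPO5 at 248 CPM (232 to 235 CPM). CALD1 and NFIB were flagged because their change in SCC154 differed from that in FADU, by -2.03 and -1.40 on the log2 scale.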

How the results depend on the processing

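The 93 calls became 291 with no filter on low counts (85 shared), 207 with DESeq2 (87 shared) and 22 with SCC154 libraries alone. Leaving out 1 SCC154 replicate at a time gave 20 to 190 calls, and leaving out post-hypoxic replicate 3 with non-hypoxic replicate 1 gave 72, of which 42 were shared. With RLE factors 92 passed and with limma voom 131. Genes whose change differed between the lines numbered 51 with no filter, 21 with DESeq2, 3 with limma voom and 2 to 3 without 1 replicate. With the replicate number entered as a block for each line, 1052 genes passed, all 93 among them, and 224 differed between the lines. Same-numbered post- and non-hypoxic libraries correlated at 0.047, 0.409, 0.500 and 0.199 for replicates 2 to 5 over 9551 genes. Post-hypoxic replicates 3, 4 and 5 each correlated best with the non-hypoxic library of their own number. Post-hypoxic replicate 2 correlated best with non-hypoxic replicate 4 (0.297). No label says that the numbers pair libraries, so they were not taken as a pairing, and whether they are one remains undecided. Of the changes of named genes under alternatives, 1088 kept their side of the threshold, 633 no longer passed and 3 newly passed: VEGFA (-0.70) and BNIP3 (0.37) with the block, and VEGFA (-0.81) without both libraries. None of the 93 called genes changed sign; of those not called, NDRG1 (0.76) was -1.03 without post-hypoxic replicate 3, and PDK1 and LDHA, both near 0, also crossed it. Without both libraries 8 list medians moved: keratins 0.037, matrix proteases -0.024, Notch signalling 0.048, Hippo signalling -0.123, vesicle release -0.049, germline genes 0.094, squamous transcription factors -0.127 and NAD synthesis 0.031. The causes were not tested. At 1.68 to 2.44 counts per CPM, genes of a few CPM are limited by counting error.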

Other observations

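Just short of the threshold lay genes with roles close to those called. By edgeR, with Benjamini-Hochberg adjustment over all genes, CTSV, a relative of CTSL, changed by 0.60 (adjusted p = 0.0557) on the log2 scale and TGFBI, a matrix protein induced by TGF-beta, 0.46 (adjusted p = 0.0557). In the other direction XRCC2, of homologous recombination, had -0.70 (adjusted p = 0.0557) and PRKDC, the kinase of end joining, -0.67 (adjusted p = 0.0689).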
